A study of Mus musculus with 10 samples.

Results

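Small nuclear, nucleolar and Cajal body RNA genes were described in a mouse myeloid progenitor line before and after removal of the hormone that keeps Hoxa9 active. Members were chosen on the measured values: genes of the GENCODE M21 types snoRNA, snRNA or scaRNA with at least 1 RPKM (reads scaled to transcript length and library size) in at least 2 of the 10 libraries. That rule took 149 of the 796 genes of these types with a listed transcript, out of 26227 genes in all. The 149 members comprised 136 of 410 snoRNA genes, 12 of 363 snRNA genes and 1 of 23 scaRNA genes. Their levels are therefore a description. At the edge of the rule, the second highest library was at 1.03 RPKM for Gm26135 and 1.04 for Gm24339, which were taken, and at 0.977 for Snora23 and 0.976 for Snord91a, which were not.

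All groups were ER-Hoxa9-Lys-GFP cells of the C57BL/6 strain, a line carrying Hoxa9 as a fusion with estrogen receptor sequence that works only while estradiol (E2) is present, and grew in RPMI containing serum and SCF-conditioned medium. The untreated group kept E2. The 24 h, 40 h and 72 h groups lost E2 for 24, 40 or 72 h and then had it back for 96, 80 or 48 h, and the 120 h group went without E2 for 120 h. Each group held 2 libraries from a single cell line, made from total RNA with a TruSeq RNA kit. Whether the replicates came from separate cultures is not said in the labels; the spread behind each p-value is that of these libraries and may be technical.

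Small nucleolar RNAs guide chemical modification of ribosomal RNA: box C/D RNAs direct methylation of the ribose and box H/ACA RNAs direct conversion of uridine to pseudouridine. Most mammalian snoRNAs lie in introns of other genes, the hosts, and are trimmed out of the spliced intron, so they are made with the host transcript and then have a fate of their own. Spliceosomal snRNAs have their own promoters, and scaRNAs guide the modification of snRNAs in Cajal bodies. None of these mature RNAs carries a long poly(A) tail.

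Although the U17 RNAs Snora73a and Snora73b were taken, several of the best known RNAs of these classes did not reach the rule. The highest value in any library was 0.299 RPKM for Rnu1a1 (U1), 0.375 for Rnu5g (U5), 0.102 for Rnu6 (U6), 0.163 for Rnu11 and 0.109 for Rnu12 of the minor spliceosome, 0.204 for Rnu3a (U3), 0.121 for Snord118 (U8) and 0.262 for Scarna2. Rnu7, which takes part in processing histone pre-mRNA, reached 0.966 RPKM, and Rnu73b, at 1.92, passed 1 RPKM in a single library. Among other RNAs without a poly(A) tail, Rn7sk was listed at 11.0 to 30.5 RPKM and Rmrp at 0.327 to 3.10. How far the library preparation took up mature small RNAs was not tested, and reads that match several copies of a gene could have been dropped or divided in the authors' counting, whose treatment of them is not given in the sources used here.

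The members that were measured mostly lay inside other genes. Of the 149, 104 overlapped an exon of another gene on the same strand, 89 of them wholly. For 80 members the exon belonged to a transcript annotated as a retained intron. Another 10 overlapped an exon on the opposite strand only, 26 lay in introns with no annotated exon over them, and 9 had neither an exon nor a host. In all, 131 members sat in 66 host genes, of which the richest were Gas5 with 9 members, Snhg1 with 8 and Taf1d with 7. Members were 54 to 343 bases long, with a median of 93. Of them, 27 shared a stretch of 50 bases, on either strand, with a GENCODE M21 transcript of another gene at a different place. For a member under an exon on the same strand, its own reads and those of the longer transcript cannot be told apart, and for a member opposite an exon the same holds unless the counting used strand, which is not stated.

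The sequence boxes that define the classes were searched on the strand of each transcript, with sequences and coordinates from GENCODE M21 (build GRCm38). Of the 136 snoRNA members, 41.2% held TGATGA (C box) in the first 25 bases, 64.7% held CTGA (D box) in the last 25, and 36.8% held ACA 3 bases from the 3′ end, give or take 1 base. Among the 274 snoRNA genes that were listed and not taken, the shares were 17.5%, 48.2% and 45.6%. By combination, 48 members held both C and D boxes, 44 the ACA end, 6 all of these and 38 neither set. A match describes the letters only. Gm22357 in Gas5 (chr1:161036057-161036139, + strand) and Gm24452 in Snhg1 (chr19:8724531-8724602, + strand) are shown as box C/D members called at both 72 h and 120 h, and Snord96a in Rack1 (chr11:48802032-48802112, + strand) as one whose libraries were higher and lower at these times without passing the test. The C and D boxes are in capitals.
Gm22357: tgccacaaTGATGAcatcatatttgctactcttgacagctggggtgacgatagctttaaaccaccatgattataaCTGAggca
Gm24452: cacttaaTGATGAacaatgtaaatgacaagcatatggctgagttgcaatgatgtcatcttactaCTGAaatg
Snord96a: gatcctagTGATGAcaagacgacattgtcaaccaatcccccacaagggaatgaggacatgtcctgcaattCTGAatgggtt

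Snora65 in Rpl12 (chr2:32963291-32963420, + strand) is shown as a box H/ACA member that fell at 120 h, with the ACA in capitals. Snord16a in Rpl4 (chr9:64175423-64175521, + strand) is shown because it was called in 4 of the 5 comparisons. Its CTGA is in capitals, and TGATGA is not in its first 25 bases.
Snora65: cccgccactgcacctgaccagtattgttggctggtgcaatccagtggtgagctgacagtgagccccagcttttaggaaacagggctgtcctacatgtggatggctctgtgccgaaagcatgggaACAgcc
Snord16a: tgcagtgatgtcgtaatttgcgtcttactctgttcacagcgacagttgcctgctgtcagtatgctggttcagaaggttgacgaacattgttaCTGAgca

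Depth was even across libraries and the members sat near its lower end. The RPKM values resolved into whole reads and gave 173622000 to 204388000 reads as the denominator of each library, so that 1 read on 100 bases was worth 0.0489 to 0.0576 RPKM. A member had a median of 6 to 72 reads per library, and members at 0 numbered 0 to 14 per library. As a check of the labels, 5 neutrophil markers (S100a8, S100a9, Ltf, Camp and Ngp) summed to 0.993 to 4.12 RPKM in the untreated, 24 h and 40 h libraries, 241 and 444 at 72 h, and 19800 and 19000 at 120 h, while 11 progenitor markers summed to 5130 to 9070 up to 72 h and 1710 and 873 at 120 h. The 4 macrophage markers summed to 7.38 to 68.6 RPKM up to 72 h and to 515 and 631 at 120 h. No marker of these 3 lists was at 0 in any library, and the erythroid, B cell, T cell and stroma lists summed to at most 7.95 RPKM. The part of these marker changes in the results below was not tested, and in such bulk samples fewer cells of a type and less RNA per cell cannot be told apart.

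Some libraries stood apart in the members. In 72 h replicate 2, 140 of the 149 members were above replicate 1, with summed RPKM 1.84 times as high (485 in replicate 1, 892 in replicate 2) and a median difference of 0.81 on the log2(RPKM + 1) scale. Over all 13004 genes tested that median difference was 0.02, and over 63 host genes it was -0.01. The same direction was seen in 132 members for 120 h replicate 2 (summed RPKM 204 and 330), where the hosts went the other way (median -0.44), and in 119 members for 24 h replicate 2 (366 and 484), but the untreated pair (355 and 355) and the 40 h pair (469 and 463) were level. The 104 members in exons and the 26 in introns showed the gap at 72 h alike, with 101 and 25 members higher in replicate 2, whereas of the 9 members without exon or host 6 were higher. Retained-intron transcripts of 4240 genes without a member had a median level, as a share of the gene's chosen transcript, of 71.3% and 72.0% at 72 h. In the other libraries it was 67.7% to 71.8%. These are values of whole transcripts, which can include exons shared with the chosen transcript, so a change in intron reads alone could be hidden. The cause of the gap was not tested.

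**Figure D1:**
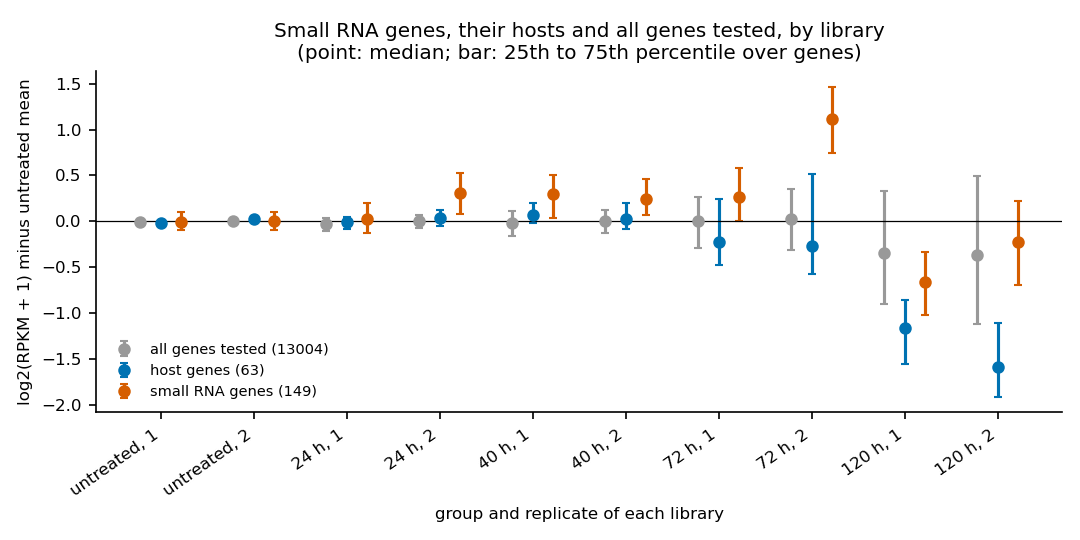
Each point is the median over genes of log2(RPKM + 1) minus the mean of the 2 untreated libraries, with bars from the 25th to the 75th percentile, for all genes tested, host genes and the 149 small RNA genes in each library. The small RNA genes stood highest in 72 h replicate 2 (median 1.11) against 0.27 in replicate 1, while the host genes were at -0.27 and -0.22 there.

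Fitted with limma on log2(RPKM + 1) over all 13004 genes and 10 libraries, with Benjamini-Hochberg adjustment and a threshold of 0.05, more members rose than fell at 72 h, and more fell than rose at 120 h. At 72 h, 46 of 149 were higher than untreated (21.6% of all genes tested were) and 3 were lower (22.3% of all genes). Of the 149, 8 reached 1 RPKM in the libraries of a single group only (4 at 72 h, 3 at 120 h and 1 at 40 h), and all 8 are among those called higher there, a call that the rule favours. Over all 149, 118 and 140 reached 1 RPKM in the 72 h libraries, against 90 and 88 in the untreated ones. The rule can thus favour higher calls and a higher median at 72 h beyond these 8. At 120 h, 11 members were higher (27.5% of all genes) and 45 lower (52.7% of all genes), so that the share falling was below the background share. From 72 h to 120 h, 9 rose (26.4% of all genes) and 109 fell (51.0% of all genes). The comparisons at 72 h and 120 h share the untreated libraries.

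The median member differed from untreated by 0.70 on the log2(RPKM + 1) scale against 0.02 for all genes tested, and 139 members were above 0. Both libraries of a group lay above both untreated ones for 94 members at 72 h (41.4% of all genes), 88 at 40 h (29.2%) and 55 at 24 h (16.9%). The median differences at 24 h and 40 h were 0.19 and 0.28, against -0.02 and -0.01 for all genes. At 40 h, 3 members passed the test higher (0.93% of all genes) and none lower (3.35% of all genes). Of these 3, Gm26316 became a member through the 40 h libraries alone. At 24 h 0 members and no other gene passed (0.0% of all genes), while 7 members and 365 genes had an unadjusted limma p under 0.05, and limma with voom weights on the recovered reads also called 0 members. The number called at 72 h rested on single libraries: leaving out 72 h replicate 2 gave 13 members and leaving out 72 h replicate 1 gave 101, while leaving out untreated replicate 1 or 2 gave 16 or 22. In replicate 1 alone the median member was still 0.27 above untreated.

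**Figure D2:**
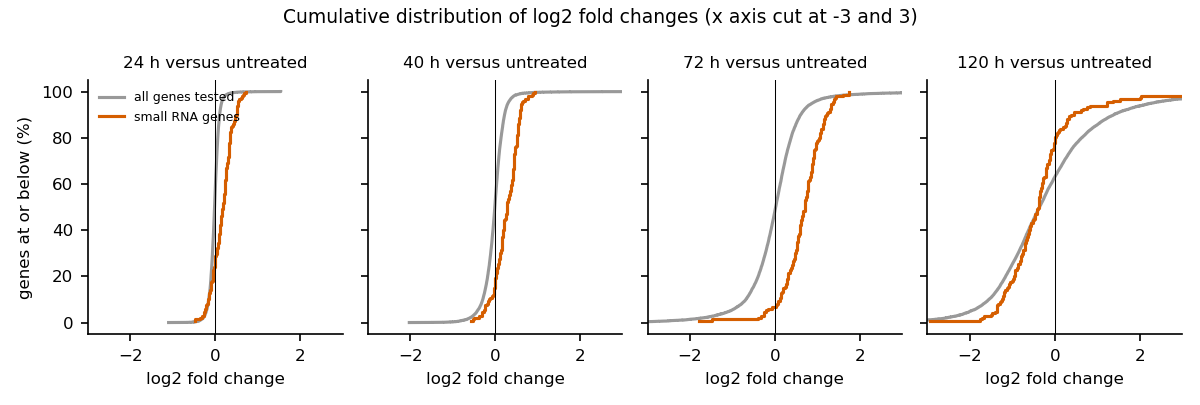
Each line is the cumulative share of genes (percent) at or below a log2 fold change against untreated, for the 149 small RNA genes and all 13004 genes tested, 1 panel per group. Over most of its range the small RNA curve lies to the right of that of all genes at 24 h, 40 h and 72 h (medians 0.19, 0.28 and 0.70), and at 120 h the medians are -0.38 and -0.36.

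At 120 h, 81 members had both libraries below both untreated libraries (57.6% of all genes did). The median member differed by -0.38 and the median gene by -0.36. Dividing each library by its median-of-ratios size factor moved the median gene from -0.36 to -0.04 and the median member to -0.26, and then 15 members were higher and 35 lower, against 4941 and 5258 of all genes in place of 3582 and 6858. Of the calls, 7 of the 11 higher and 21 of the 45 lower stood in each fit that left out 1 library. By class, 44 of 136 snoRNAs were lower and 3 higher. Of 12 snRNAs, 7 were higher and 1 lower, and the single scaRNA was higher. Among these 7 snRNAs, 3 became members through the 120 h libraries alone (Gm23306, Gm25465 and Gm26473), a call that the rule favours. The same 3 are among the 7 higher calls that stood in each fit. Gm23100, another of the 7 snRNAs, became a member through the 72 h and 120 h libraries. The scaRNA, Gm22009, was under 1 RPKM in the untreated and 72 h libraries and over it at 120 h. The rule favours the calls of both. The difference between classes was not tested. Without untreated replicate 1, 35 members were called in place of 56.

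Snord16a, a box C/D RNA in a retained intron of the ribosomal protein gene Rpl4, rose at 40 h and 72 h and fell at 120 h. It was at 19.2 and 17.01 RPKM untreated, 20.99 and 24.7 at 24 h, 32.4 and 30.6 at 40 h, 50.9 and 64.0 at 72 h and 10.8 and 9.31 at 120 h. No library of the 24 h, 40 h or 72 h groups overlapped the untreated ones, and both 120 h libraries were below all others. By limma the log2 fold change was 0.77 (SE 0.13, adjusted p = 0.0193) at 40 h, 1.61 (SE 0.13, adjusted p = 3.99e-05) at 72 h and -0.79 (SE 0.13, adjusted p = 6.07e-04) at 120 h. The call at 40 h was lost without any 1 library of either group (adjusted p = 0.0915 to 0.181), and that at 72 h held without each of the 10 libraries. Its host Rpl4 was at 2302 and 2415 RPKM untreated and at 1643 and 1542 at 72 h (log2 fold change -0.57, adjusted p = 0.0668 by limma), and was at 941 and 629 at 120 h.

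Snord17, a long box C/D RNA in an intron of Snx5 (a sorting nexin) with no annotated exon over it, also rose at 40 h and 72 h. Its RPKM was 0.473 and 0.691 untreated, 0.833 and 0.943 at 24 h, 1.41 and 1.42 at 40 h, 1.78 and 1.49 at 72 h and 0.339 and 0.393 at 120 h. Here replicate 1 was the higher library at 72 h. Snord17 reached 1 RPKM only in the 40 h and 72 h libraries and became a member through them, so the rule favours both calls. The log2 fold change by limma was 0.61 (SE 0.10, adjusted p = 0.0162) at 40 h and 0.74 (SE 0.10, adjusted p = 6.56e-04) at 72 h, and at 120 h -0.21 (adjusted p = 0.0866). As for Snord16a, the call at 40 h was lost without any 1 library of either group, and that at 72 h was not. Snx5 itself fell at 72 h, from 241 and 222 RPKM to 152 and 153 (log2 fold change -0.60, adjusted p = 7.63e-04 by limma).

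Of the 46 members higher at 72 h, 11 were called in each of the 10 fits that left out 1 library: Snord16a, Snord17, Gm25744, Gm22589, Gm22620, Gm23969, Gm24727, Gm26397, Snora5c, Snord50a and 1 of the genes named Snora43. Of these, Gm23969, Gm26397 and that Snora43 gene became members through the 72 h libraries alone, and Snord17 through the 40 h and 72 h libraries. The other gene named Snora43, which covers the same place on the same strand, did not rise at 72 h. Its mean was 3.05 RPKM untreated and 2.81 at 72 h (log2 fold change -0.16, adjusted p = 0.623 by limma). Gm25744, a box C/D RNA in the noncoding gene 1110038B12Rik, was at 1.32 and 1.26 RPKM untreated, 3.57 and 7.0 at 72 h, and 0 and 0.156 at 120 h. Its log2 fold change by limma was 1.40 (SE 0.25, adjusted p = 0.00262) at 72 h and -1.09 (adjusted p = 0.00357) at 120 h. Gm24727, in an intron of the glutathione reductase gene Gsr, was the only one of the 11 that was also higher at 120 h: 0.204 and 0.276 RPKM untreated, 3.12 and 3.14 at 72 h, and 2.52 and 2.63 at 120 h, and Gsr rose with it (log2 fold change 2.52 at 72 h and 3.07 at 120 h). Snora5c, a box H/ACA RNA in Tbrg4, went from 1.87 and 1.54 to 3.96 and 3.64 RPKM at 72 h and Tbrg4 rose too (0.61 on the log2 scale). Among the 11, Snord50a shared 100% of its 50-base windows with another annotated gene, Gm24727 75.8% and Snora5c 23.0%.

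All 7 members of Taf1d, which encodes a subunit of the RNA polymerase I factor SL1, were higher at 72 h (21.6% of all genes tested were). The median log2 fold change of the 7 was 1.30 (range 1.07 to 1.45), while Taf1d itself was not called (0.19, adjusted p = 0.447 by limma). Their median stood 0.83 above untreated in 72 h replicate 1 and 1.80 in replicate 2. Gm22579, one of the 7, was at 0.773 and 1.41 RPKM untreated and 2.83 and 7.33 at 72 h. All of its 50-base windows were shared with other annotated genes, and its call was lost without 72 h replicate 2 or untreated replicate 1. At 120 h, 1 of the 7 was lower (52.7% of all genes tested were) and the median was -0.26, against -1.20 for Taf1d.

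The 9 members of Gas5 and 8 of Snhg1, noncoding genes with snoRNAs in their introns, had median log2 fold changes of 0.91 and 1.04 at 72 h. By the test 1 and 3 of them were higher then (21.6% of all genes tested were). At 120 h the medians were -0.86 and -1.26, with 5 and 7 lower (52.7% of all genes tested were). Gm22357 of Gas5 was at 5.42 and 3.90 RPKM untreated, 4.78 and 7.65 at 24 h, 8.44 and 8.93 at 40 h, 8.94 and 19.1 at 72 h, and 0.763 and 2.38 at 120 h. By limma it was 1.33 (SE 0.39, adjusted p = 0.0257) higher on the log2 scale at 72 h, when Gas5 was lower (-0.45, adjusted p = 0.0248), and -1.20 (adjusted p = 0.0205) at 120 h. Gm24452 of Snhg1 was at 5.50 and 3.78 RPKM untreated, 7.62 and 20.6 at 72 h and 0.720 and 1.78 at 120 h, with log2 fold changes of 1.29 (adjusted p = 0.0331) and -1.35 (adjusted p = 0.0141) by limma. In both genes the 72 h value of replicate 2 was over the highest library of every other group, and that of replicate 1 was close to those at 40 h. The 72 h calls of both were lost without 72 h replicate 2 or either untreated library, and the 120 h calls without untreated replicate 1 or 120 h replicate 1. That of Gm24452 at 72 h was also lost without any 1 of the 24 h or 40 h libraries, and stood in 3 of the 10 fits that left out 1 library. Snord22 of Snhg1 was at 4.62 and 3.47 RPKM untreated, 5.85 and 15.3 at 72 h and 0.914 and 1.02 at 120 h (-1.35, adjusted p = 0.0136 by limma at 120 h, lost without untreated replicate 1). Gm22744 of Snhg1 was at 3.91 and 3.58 RPKM untreated, 4.36 and 5.90 at 24 h, where it was not called (0.36), and 0.354 and 1.97 at 120 h.

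Members in other ribosomal protein hosts varied. Gm23130 in Rps12 went from 4.43 and 2.53 RPKM to 6.85 and 15.8 at 72 h (log2 fold change 1.39, adjusted p = 0.0494 by limma) and 0.467 and 1.47 at 120 h (-1.20, adjusted p = 0.0491). Snord100 in the same gene went from 3.77 and 2.45 to 4.66 and 13.2 RPKM at 72 h (1.15, adjusted p = 0.0395). The 72 h calls of both were lost without 72 h replicate 2, either untreated library or either 40 h library. That of Snord100 was also lost without either 24 h library. They stood in 5 (Gm23130) and 3 (Snord100) of the 10 fits that left out 1 library, and the 120 h call of Gm23130 stood in 5. Snord96a in Rack1, a ribosomal scaffold gene, was at 5.13 and 6.86 RPKM untreated, 10.3 and 19.4 at 72 h and 1.21 and 4.87 at 120 h, and neither difference passed the limma test (adjusted p = 0.0825 and 0.0895). The 3 members of Rpl23a had a median of 0.03 at 72 h and none was called.

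The U17 pair Snora73a and Snora73b of Snhg3, box H/ACA RNAs needed for cleavage of the ribosomal RNA precursor, were both higher at 72 h. Snora73b was at 1.00 and 1.27 RPKM untreated, 2.55 and 6.24 at 72 h and 0.197 and 1.18 at 120 h (log2 fold change 1.25, adjusted p = 0.0319 by limma at 72 h). Snora73a was at 0.668 and 1.38 RPKM untreated and 1.99 and 5.71 at 72 h (1.17, adjusted p = 0.0443). Snora2b in Kansl2 had the largest log2 fold change at 72 h among called members with a 72 h mean of at least 5 RPKM, 1.74 (SE 0.50, adjusted p = 0.0233 by limma). It was at 0.929 and 1.57 RPKM untreated against 3.97 and 10.1 at 72 h. Gm26247, in a UTR exon of 2410002F23Rik, was at 1.72 and 2.18 RPKM untreated and 3.85 and 10.9 at 72 h (1.37, adjusted p = 0.0305 by limma), and this gene rose with it (0.74). All 4 calls were lost without 72 h replicate 2 or either untreated library. Those of Snora73b and Gm26247 were also lost without either 40 h library, and stood in 5 of the 10 fits that left out 1 library. That of Snora73a was also lost without any 1 of the 24 h or 40 h libraries and stood in 3, and that of Snora2b stood in 7.

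**Figure D3:**
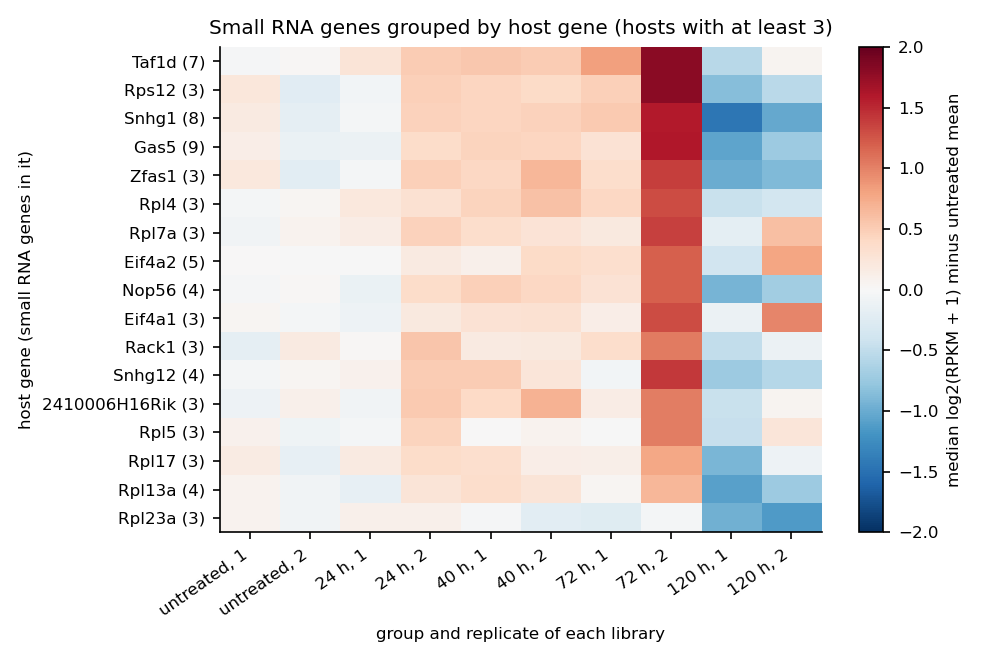
Each cell is the median, over the small RNA genes of 1 host, of log2(RPKM + 1) minus the untreated mean in 1 library (colour scale from -2 to 2), for the 17 hosts with at least 3 such genes. 72 h replicate 2 has the highest value of its row for every host except Rpl23a, from 1.81 in Rps12 to -0.05 in Rpl23a, and most cells of the 120 h libraries are blue.

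Of 95 members whose host was tested on a transcript that leaves the member out (53 hosts), 32 had the sign of their host at 72 h and 80 at 120 h, and 88 lay above their host at each of these times. At 24 h and 40 h, 76 and 75 lay above the host, and from 72 h to 120 h 44 did. The median member and the median host differed from untreated by 0.71 and -0.37 at 72 h and by -0.35 and -1.43 at 120 h. Among hosts, 8 were higher and 10 lower at 72 h (21.6% and 22.3% of all genes tested were). At 120 h 2 hosts were higher and 46 lower (27.5% and 52.7% of all genes tested were). Of the 33 of these members that rose at 72 h, 25 had a host that was not called, 3 a host that rose and 5 a host that fell. At 120 h 22 of these members fell, each with a host that fell. The difference between member and host was not tested. Hosts were at a median of 139 to 255 RPKM, and on the log2(RPKM + 1) scale the change of members near 1 RPKM is understated. For members that fell at 120 h this favours a place above the host. The median share of host RPKM, given below, was under the untreated values in 120 h replicate 1 and over them in replicate 2.

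**Figure D4:**
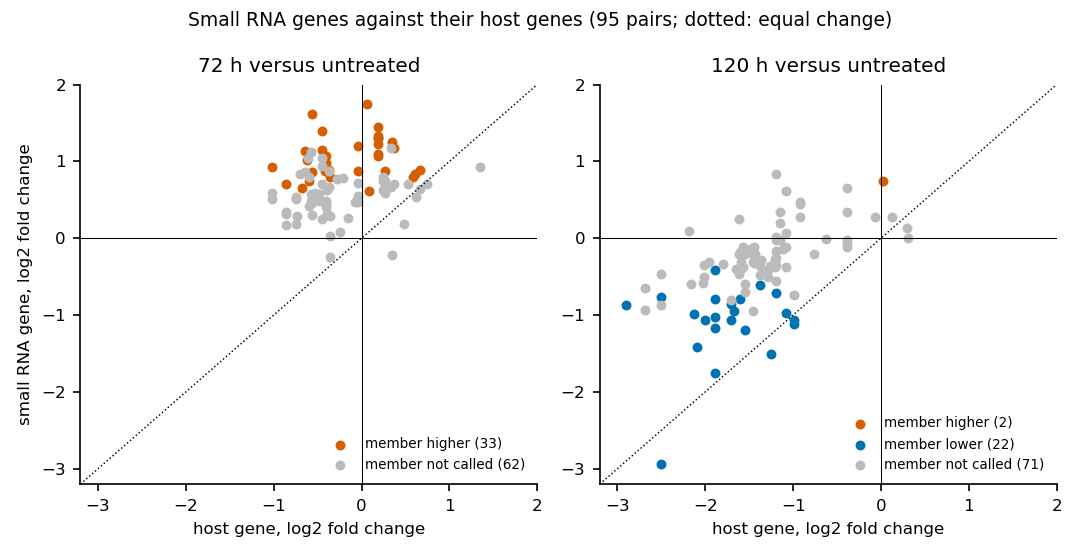
Each point is 1 of 95 small RNA genes, placed by the log2 fold change of its host (x) and its own (y) against untreated at 72 h (left) and 120 h (right), coloured by the limma call of the small RNA gene. The 33 called genes at 72 h all lie above 0 and most to the left of or near 0 on the host axis, and at 120 h 80 of 95 genes share the sign of the host.

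As a share of its host's RPKM, the median member was at 0.505% and 0.38% in the untreated libraries, 0.42% and 0.651% at 24 h, 0.579% and 0.636% at 40 h, 0.924% and 1.68% at 72 h, and 0.195% and 1.00% at 120 h. Both 72 h libraries were above all earlier ones. The 120 h libraries lay on either side of them, 1 below and 1 above.

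Among members of at least 5 RPKM untreated, the lowest log2 fold changes at 120 h were those of Gm23187, Snora65, Snord78 and Snora15. Gm23187 overlaps coding and UTR exons of Nop56, itself a core protein of box C/D particles, and was at 19.2 and 21.96 RPKM untreated and 1.47 and 2.18 at 120 h (log2 fold change -2.94, SE 0.26, adjusted p = 1.32e-05 by limma), and Nop56 fell by 2.50 on the log2 scale. Snora65 in Rpl12 was at 7.34 and 8.20 RPKM untreated, 6.15 and 15.2 at 72 h and 1.06 and 2.24 at 120 h (-1.76, adjusted p = 0.00221). Snord78 in Gas5 was at 8.75 and 7.05 RPKM untreated, 8.15 and 28.7 at 72 h and 1.22 and 2.24 at 120 h (-1.72, adjusted p = 0.00957, a call lost without untreated replicate 1). In each of these the 120 h libraries were below every other library.

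Snora15, in the chaperonin gene Cct6a, had the highest mean of all members and was not called at 72 h. It was at 43.6 and 45.6 RPKM untreated, 56.1 and 43.9 at 72 h and 16.4 and 11.1 at 120 h. The log2 fold change by limma was 0.15 (SE 0.17, adjusted p = 0.499) at 72 h and -1.66 (SE 0.17, adjusted p = 3.37e-05) at 120 h, beside 0.19 and -1.73 for Cct6a. An exon of a Cct6a transcript covers 77.9% of it. Gm25767, opposite a UTR exon, stayed between 10.7 and 15.3 RPKM and passed no test. Snora28 in Eif5 (a translation initiation factor) stayed between 3.22 and 7.85 RPKM in all libraries and passed no test, and Snora64 in Rps2 was at 2.67 and 2.84 RPKM untreated and 1.38 and 1.58 at 120 h (-0.60, adjusted p = 0.205 by limma).

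**Figure D5:**
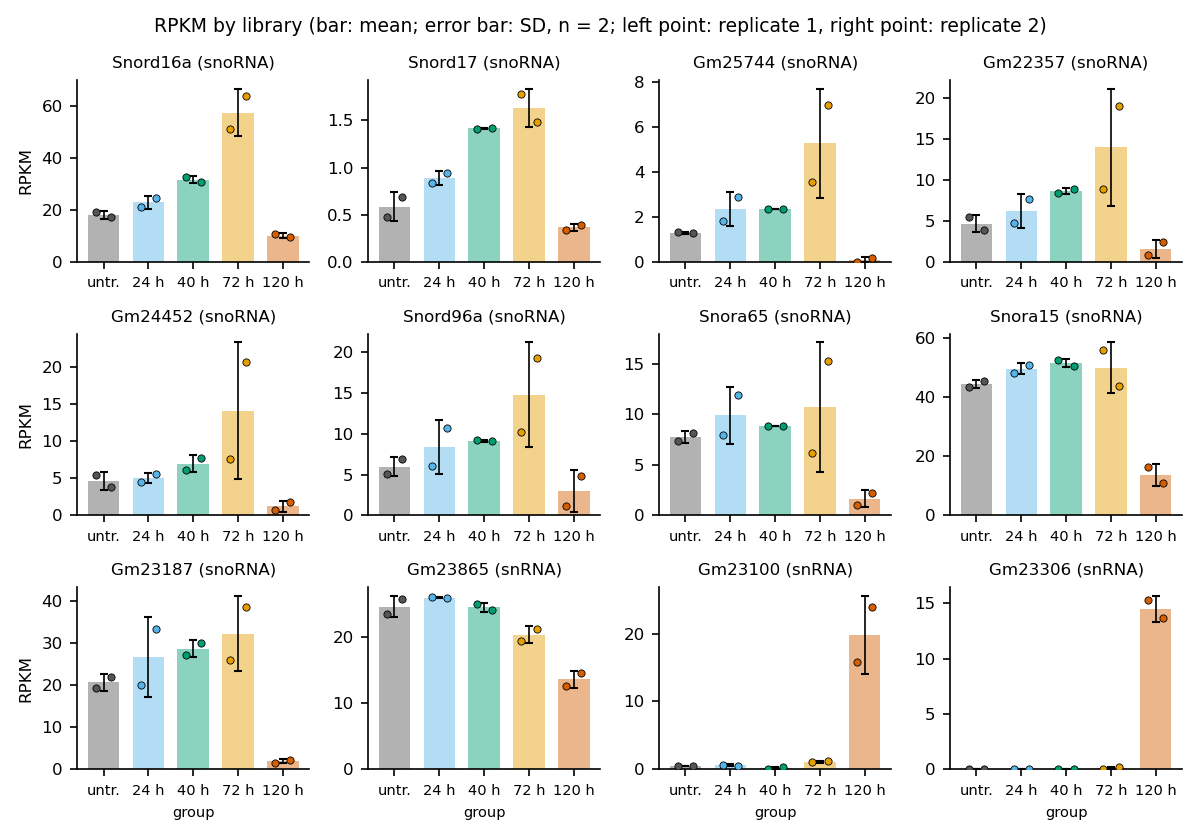
RPKM of 12 small RNA genes in the 5 groups; bars are means, error bars the SD (n = 2) and the points replicate 1 (left) and replicate 2 (right), with a y axis of its own in each panel. Snord16a and Snord17 climb from untreated to 72 h, Gm22357, Gm24452 and Snord96a are highest in 72 h replicate 2, and Gm23100 and Gm23306 are high at 120 h, where Gm23306 reached 15.3 and 13.7.

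The 12 snRNA members all carried predicted-gene names, and 6 of the 7 that rose at 120 h lay in, opposite or beside a gene that rose. Gm23306 (chr16:36285433-36285537, - strand) and Gm25465 (chr16:36359218-36359322, + strand) lie within 0.1 kb of Stfa1 and BC100530, stefin A genes that encode cysteine protease inhibitors of neutrophils. Their sequences are shown because they differ at 1 of 105 bases, written in capitals (G16A, counted from the 5′ end, Gm23306 first), and reads that miss this base cannot be told apart between them.
Gm23306: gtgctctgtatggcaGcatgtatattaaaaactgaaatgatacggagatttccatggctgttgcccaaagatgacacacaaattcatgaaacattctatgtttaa
Gm25465: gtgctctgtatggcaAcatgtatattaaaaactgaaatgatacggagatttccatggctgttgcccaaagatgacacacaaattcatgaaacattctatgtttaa

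Gm23306 was listed at 0 in both libraries of the untreated, 24 h and 40 h groups, at 0.050 and 0.156 RPKM at 72 h and at 15.3 and 13.7 at 120 h. Against a floor of 3 reads per untreated library (0.151 RPKM on average), its 120 h mean of 14.5 was at least 95-fold higher, and Gm25465, at 15.7 and 12.7 RPKM, was at least 93-fold higher. Both became members through the 120 h libraries, so these differences are a description, without a p. Stfa1 itself went from 0.597 and 0.434 RPKM untreated to 46.5 and 81.8 at 72 h and 5196 and 4366 at 120 h, and BC100530 from 0.277 and 0.247 to 2833 and 2418.

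Further snRNA members rose where they overlap or face another gene. Gm23100, opposite an exon of the antisense gene 1600010M07Rik, was at 0.451 and 0.442 RPKM untreated, 1.00 and 1.16 at 72 h and 15.8 and 23.9 at 120 h (log2 fold change 3.82, SE 0.19, adjusted p = 5.25e-07 by limma), beside 0.268 and 0.184, then 4.75 and 7.45 at 120 h, for 1600010M07Rik. The mean of Gm23100 was 0.554 RPKM at 24 h and 0.174 at 40 h. It became a member through the 72 h and 120 h libraries, so the rule favours its call. Gm27995 lies in a UTR exon of Trim12c, a TRIM family gene, and was at 2.94 and 4.37 RPKM untreated and 14.8 and 21.3 at 120 h, while Trim12c was at 2.53 and 3.12 and then 16.2 and 21.7. Gm26473 lies in a UTR exon of the complement receptor gene C5ar2 and was listed at 0 in all libraries up to 40 h and at 2.22 and 3.96 RPKM at 120 h, at least 24-fold above the floor, while C5ar2 reached 3.35 and 5.62.

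Gm25920, opposite a UTR exon of Dnajb14 (a heat shock protein partner), went from 1.53 and 1.32 RPKM to 3.90 and 7.07 at 120 h, beside 1.64 and 1.72, then 4.56 and 6.57, for Dnajb14. Gm25047 rose by 0.39 on the log2 scale at 120 h, from 2.49 and 2.51 to 3.6 and 3.601 RPKM (adjusted p = 0.0181 by limma), a call lost without either untreated library, and its nearest gene Lonrf3, 1.6 kb away, was not called at 120 h. Gm23865, opposite a UTR exon of the centrosomal gene Odf2, was the snRNA member with the highest mean and the one that fell: 23.5 and 25.7 RPKM untreated, 19.4 and 21.3 at 72 h and 12.6 and 14.5 at 120 h (-0.81, SE 0.09, adjusted p = 4.90e-05), with Odf2 at 22.9 and 24.1, then 14.6 and 13.6. Whether the reads came from the small RNAs or from the genes over them was not tested.

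Gm26316 (chr11:101604850-101605040, + strand) was called at 40 h alone. Its sequence resembles U2, the snRNA that pairs with the branch site, and is shown with the Sm protein site ATTTTTG in capitals, a site that 16.7% of the 12 snRNA members and 20.5% of the 351 other listed snRNA genes held as ATTTNTG.
Gm26316: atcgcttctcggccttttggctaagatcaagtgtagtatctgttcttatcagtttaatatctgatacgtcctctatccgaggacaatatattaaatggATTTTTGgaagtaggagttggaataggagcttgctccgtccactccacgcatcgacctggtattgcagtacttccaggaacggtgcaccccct

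Gm26316 was at 0.102 and 0.119 RPKM untreated, 0.178 and 0.229 at 24 h, 1.07 and 1.20 at 40 h, 0.301 and 0.171 at 72 h and 0.181 and 0.052 at 120 h. Both 40 h libraries were above all 8 others. The fitted log2 fold change at 40 h was 0.94 (SE 0.10). It became a member through these 2 libraries, so the difference is a description and its p is not given. It shares 84.5% of its 50-base windows with other annotated genes.

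The remaining members higher at 120 h were few. Gm22394 and Gm22871 lie in coding exons of Trpm2, a cation channel gene. Gm22394 was at 1.93 and 2.91 RPKM untreated, 0.137 and 0.287 at 72 h and 3.49 and 13.3 at 120 h, beside 1.47 and 1.45, then 0.269 and 0.454, then 3.68 and 10.5 for Trpm2. They are also 2 of the 3 members lower at 72 h (log2 fold changes -1.48 and -1.78, adjusted p = 0.0315 and 0.0185 by limma), the third being Gm23865, and none of these 3 calls stood in every fit that left out 1 library. The scaRNA member Gm22009, in an intron of the importin gene Kpna4, was at 0.613 and 0.694 RPKM untreated, 0.152 and 0.746 at 72 h and 1.28 and 2.40 at 120 h (0.75, SE 0.25, adjusted p = 0.0206), while Kpna4 was at 10.4 and 10.7 and then 10.6 and 10.9. Of these Gm22009 values only those at 120 h reached 1 RPKM, so the rule favours its call. The 120 h calls in this paragraph were lost without either untreated library or 120 h replicate 2, and those of Gm22394 and Gm22871 stood in 5 and 1 of the 10 fits that left out 1 library.

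RNA levels of the genes for proteins that build and carry these RNAs mostly fell at 120 h. All 5 genes of box C/D particle proteins were lower (median log2 fold change -2.13), among them the methyltransferase gene Fbl, from 156 and 162 RPKM to 46.4 and 28.7. All 6 genes of box H/ACA proteins were lower (-2.03), with the pseudouridine synthase gene Dkc1 at -2.59. Lower too were 9 of 9 assembly factors (-1.58), 10 of 11 Cajal body and SMN complex genes (-1.22), 16 of 17 Sm and LSm genes (-1.42) and 11 of 12 noncoding snoRNA hosts (-1.37). Over all genes tested 52.7% were lower and the median was -0.36.

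At 120 h, when 52.7% of all genes tested were lower and 27.5% higher, the lists for snRNA synthesis held genes of both directions. Of 23 genes for snRNA transcription and 3′ processing, 16 were lower and 3 higher (Ints12, Ints3 and Snapc5), with a median of -0.61. Of 13 cap, export and recycling genes 11 were lower and Usb1, which trims U6, was higher (0.92). Of 9 trimming genes 6 were lower. Few of the particle protein genes passed the test at 72 h: 0 of 5 box C/D, 1 of 6 box H/ACA (Naf1, 0.52) and 2 of 9 assembly genes (Nolc1 and Tcof1) were higher, none lower. The transcription list at 72 h counted 11 higher genes and 2 lower ones, and its median was 0.30, where 21.6% of all genes tested were higher and 22.3% lower, with a median of 0.02. Among 7 tested RNAs without a poly(A) tail outside the 3 types, 1 was higher and 1 lower at 72 h, Rpph1 (1.58) and Rn7s1 (-1.04).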

How the data were processed

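RNA-seq was made from 10 libraries of 5 groups. The deposited RPKM values were made by the authors, per the submitters' processing notes with STAR on GRCm38. The counting program, annotation, strand use and handling of reads with several matches were not stated in those sources. Of 79535 listed transcripts 77720 (97.7%) matched GENCODE M21 by identifier without version, and 1 transcript stood for each gene. For snoRNA, snRNA and scaRNA genes it was the longest listed. For all other genes, hosts included, coding transcripts came first. Ties went to those tagged as principal, then to those tagged as consensus coding sequence, then to the longest. Genes with at least 1 RPKM in at least 2 libraries (13004) were fitted with limma 3.58.1 (R 4.3.3) on log2(RPKM + 1), all groups in 1 fit, 2-sided, Benjamini-Hochberg adjusted, called under 0.05; the fit was tested on simulated data. RPKM was divided into whole reads (tolerance 0.1; 100% of the values tested came out whole) to find each library's denominator. Tables and figures used Python 3.11.15. Named genes were, per comparison, the 6 highest and 6 lowest called members with a mean of at least 5 RPKM in the higher group and libraries that do not overlap; where none was called, the 4 of the largest size at 5 RPKM or more; the 5 highest by mean in each class; and fixed names; others named here (hosts, neighbours, Gm26316, Gm26473, Gm25047, members kept in every fit) were chosen after their values were seen. The members, lists and rules were chosen with earlier results of these data known.  Alternatives covered pseudocount, filters, scaling, voom, array weights, the replicate block and leaving out libraries. Not every gene that this rule names is reported here.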

Additional observations from a re-analysis of the deposited data

How the results depend on the processing

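With 2 libraries a group and members of few reads, counts of calls moved with settings. No named member changed direction where the main or the alternative fit called the difference. Sign changes of differences that neither fit called were not counted. At 120 h against untreated, 56 members were called, 37 with no filter on low values, 11 with a mean of at least 5 RPKM, 33 with array weights, 96 without replicate 2 of the 72 h and 120 h groups (chosen after seeing the data), 12 among members over no exon, and 35 to 71 when 1 library was left out. At 72 h, 49 were called, 19 with no filter, 5 with a mean of at least 5, 31 with limma voom on recovered reads, 83 with array weights, 10 over no exon, and 13 to 101 with 1 library left out. At 40 h, 3 were called, 1 with a mean of at least 5, 38 when only the 2 groups were fitted, 1 with voom, 12 with array weights, 6 without the 120 h group (added after seeing the data), 27 without replicate 2 of 72 h and 120 h, and 0 to 6 with 1 library left out: 0 without untreated replicate 1, 1 without untreated replicate 2 or either 40 h library, 6 without either 120 h library. From 72 h to 120 h, 118 were called, 13 with a mean of at least 5, 74 with array weights, 23 over no exon, and 91 to 129 with 1 library left out. At 24 h the count was 0 throughout. The replicate number as a block gave 66 calls at 120 h, 70 at 72 h, 7 at 40 h, 0 at 24 h and 123 from 72 h to 120 h. The correlations of same-numbered deviations ran from 0.03 to 0.64 over 10 pairs of groups, all positive and 8 of them over 0.1. The labels name no shared source and 2 pairs were under 0.1, so the numbers were not taken to pair the libraries. The fewer genes left by the mean filter and the fewer members over no exon lower those counts by construction; for the other settings the cause was not tested. With 1 read on 100 bases worth 0.0489 to 0.0576 RPKM, depth limits what single members near 1 RPKM can show.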
